A study of Zea mays with 18 samples.

Results

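In maize, 150 genes were well expressed in the central cell before pollination and in the embryo 4 days after pollination (DAP), and low in the endosperm from 2 to 4 DAP. They were taken from a deposited table of 38300 genes by measured values. A gene had to reach 3 CPM (counts per 1000000 reads, scaled by the authors' normalization) in each of the 3 central cell and 3 embryo libraries, which 12978 genes did. Those genes were ranked by a score, the lower of the mean CPM in central cell and embryo plus 1, divided by the highest of the mean CPM at 2, 3 and 4 DAP endosperm plus 1, and the 150 highest scores were kept. The scores of the 150 ran from 28.2 to 3.360 with a median of 4.39, and the next gene in rank, GRMZM2G038281, stood at 3.357.

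All material was of the inbred line B73, without a transgene or mutation named in the labels, grown in a greenhouse. The groups, with 3 libraries each and 18 in all, were the central cell of unfertilized ears (0 DAP), endosperm of self-pollinated ears at 1, 2, 3 and 4 DAP, and embryos at 4 DAP. Tissue was cut out of kernel sections with a laser, and a library pooled sections of several kernels of 1 ear, so the replicates are ears. Per the labels, the RNA of the 0 to 2 DAP and embryo samples was quantified by the 18S band and that of 3 and 4 DAP endosperm otherwise, a difference that cannot be told apart from the stage.

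The central cell is the large cell of the female gametophyte that takes up a sperm at fertilization and becomes the endosperm, the tissue that feeds the embryo. The egg cell beside it takes up the other sperm and becomes the embryo. After fertilization the maize endosperm first divides its nuclei without walls, then forms cells, and only then differentiates into layers such as the basal transfer layer, the aleurone and the region around the embryo.

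The values the genes were chosen on are given first, as a description. Over the 150 genes, the median of the group means was 20.5 CPM in the central cell, 9.03 at 1 DAP, 1.49 at 2 DAP, 0.828 at 3 DAP, 1.26 at 4 DAP and 27.1 in the embryo. Over the 12978 genes that met the minimum, the same medians lay between 19.0 and 20.5 CPM in every group. The word silent fits only some of the 150: the highest of the 3 endosperm means was below 1 CPM in 51 genes, at least 1 CPM in 99, at least 10 CPM in 21 and at least 100 CPM in 6. They are called low here, not silent. In 138 of the 150, every central cell and embryo library was above every library of 2 to 4 DAP endosperm. The choice of genes largely fixes that count, which was not made over all genes and is not read as a result. In the other 12 the ranges overlapped. The lowest of the high libraries was then replicate 1 of the embryo in 7 genes and replicate 1 of the central cell in 4, and the highest of the low libraries was replicate 2 at 4 DAP in 8. The highest of the 3 endosperm means fell at 2 DAP in 81 genes, at 3 DAP in 14 and at 4 DAP in 55.

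**Figure D1:**
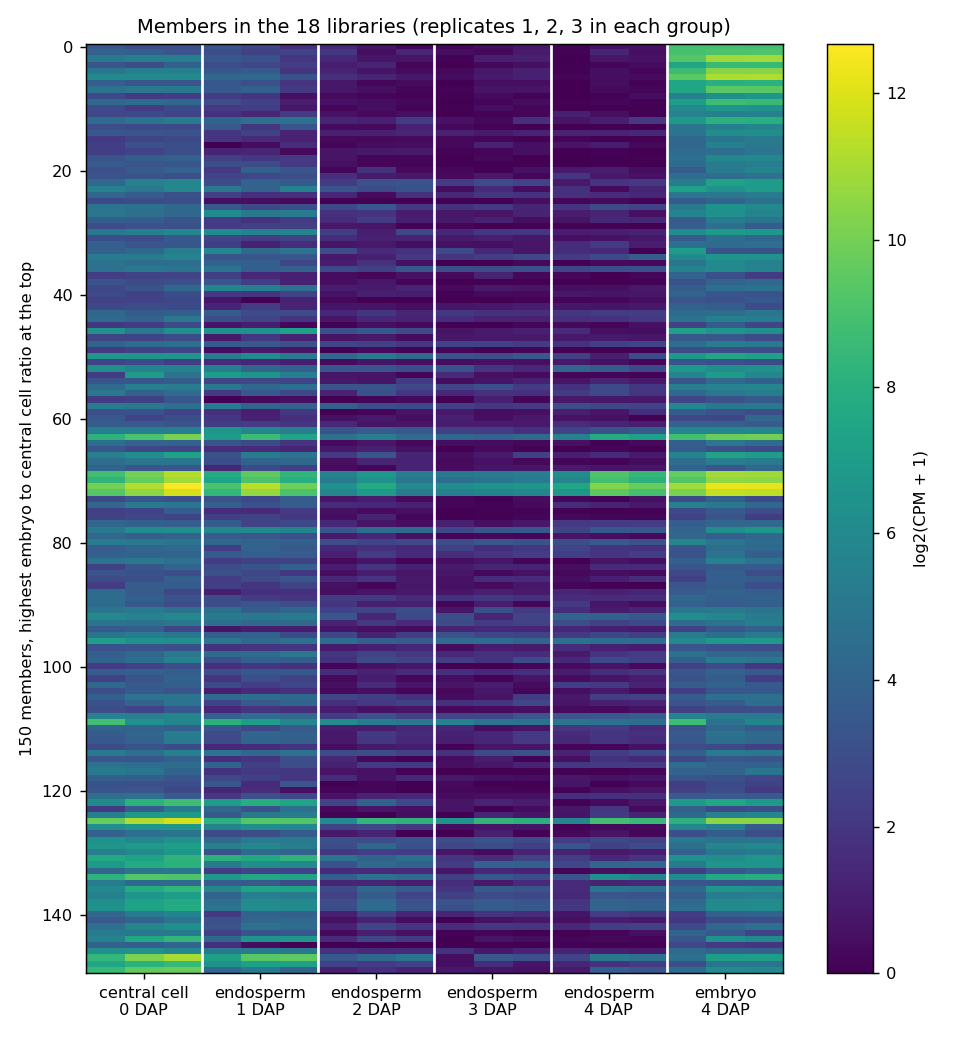
Level of each of the 150 genes (rows, ordered by the ratio of embryo to central cell) in each of the 18 libraries (columns, in groups of 3 replicates), as log2(CPM + 1) in colour. Central cell and embryo libraries are bright and 2 to 4 DAP libraries are dark apart from a few rows, as the choice of genes fixes. The choice did not use the 1 DAP libraries, but their place between the others is largely fixed by it too.

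The shallowest library, replicate 1 of 1 DAP, held 7688120 recovered reads, the deepest, replicate 1 of 2 DAP, held 124078873, and replicate 1 of the embryo held 9572961. Replicate 1 of the embryo was the lowest embryo library for 94 of the 150 genes, with a median difference from the other 2 of -0.63 on the log2(CPM + 1) scale, against -0.12 over the 12978 genes. Replicate 1 of the central cell was the lowest of its group for 80 of the 150. Without replicate 1 of the embryo, 126 of the 150 genes would again be among the 150 highest scores. In bulk libraries, fewer cells of a type and less RNA per cell cannot be told apart.

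The labelled tissues were checked against marker genes. The 5 named embryo sac genes es1, es2, es4, EBE-1 and EBE-2 summed to 465 to 1170.5 CPM in the central cell libraries and to 2.04 to 13.9 CPM in the embryo. The list did not set the central cell apart from the endosperm as a whole, with sums of 636 to 1320 CPM at 2 DAP, 472 to 830.2 CPM at 3 DAP and 115 to 275 CPM at 4 DAP. EBE-1 and EBE-2 had means of 71.0 and 799.6 CPM at 2 DAP. The genes es1, es2 and es4 had means of 86.7 to 154 CPM in the central cell and of at most 0.0250 CPM at 2 DAP. Of the 6 gene models of the embryo list, wox9B, wox9C, lec1 and vp1 had means of 16.2 to 29.9 CPM in the embryo and of at most 0.0791 CPM in the central cell, while both models of wox13A had their higher mean in the central cell, 3.33 and 3.32 CPM against 1.11 CPM in the embryo. Both models of wox13A had the same values in every embryo and 1 DAP library. Whether they are counted from separate reads was not tested. With both counted, the whole list summed to 48.3 to 109.5 CPM in the embryo and 3.59 to 8.75 CPM in the central cell. In 2 to 4 DAP endosperm it summed to at most 4.31 CPM. The embryo libraries also held the 5 genes of the embryo-surrounding endosperm, esr1, esr2, ESR3, esr-6 and ae3, at a sum of 473 to 890.0 CPM, against 42.5 to 255 CPM at 4 DAP endosperm and at most 1.29 CPM at 0 to 2 DAP. fie1 and Yucca3, the list for endosperm, summed to 1.33 to 43.1 CPM in the embryo and 5818 to 11112 CPM at 2 DAP. The 12 transfer layer genes summed to 247 to 882 CPM at 4 DAP endosperm and to at most 3.02 CPM in the embryo, where 3 of them are listed at 0. In the central cell they summed to 27.6 to 44.1 CPM, of which MRP1 alone had a mean of 35.7 CPM. The 3 aleurone genes Nkd1, Nkd2 and vpp1 summed to 91.4 to 126 CPM at 4 DAP endosperm, 3.45 to 4.82 CPM at 2 DAP and 31.1 to 47.3 CPM in the embryo. In the embryo that sum was nearly all vpp1, with a mean of 39.3 CPM, against 0.339 CPM for Nkd1 and 0.0165 CPM for Nkd2. The gene cab-m1, for photosynthetic tissue, was at 0 in the embryo and at most 0.980 CPM elsewhere. The part that RNA of these neighbouring tissues has in the values below was not tested.

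Groups were compared with limma across 31783 genes, with a call made where the adjusted p was below 0.05. Differences are given on the log2(CPM + 1) scale. For single genes too, a drop from 0 to 1 DAP or from 1 to 2 DAP is partly fixed by the choice of genes. The adjusted p of such a drop is thus no separate support for it. Since 1 DAP is the group that the choice of genes did not use, its place between the central cell and 2 DAP endosperm comes first. The groups on either side of it were chosen high and low, so a place between them is largely fixed and is given as a description. The mean at 1 DAP exceeded the highest mean of 2 to 4 DAP in 148 of 150, with a median ratio of 4.08. It did so in 26.9% of the 12978 genes at the same minimum, with a median ratio of 0.744. The 1 DAP mean was below the central cell mean in 138, with a median ratio of 0.409, against 54.6% of the 12978 and a median ratio of 0.939. The share of the drop from 0 to 2 DAP on the log2 scale that had passed by 1 DAP had a median of 37.5%, with quartiles of 22.4% and 54.9%. In 46 genes it was above 50% and in 104 below.

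From 0 to 1 DAP, 78 of the 150 genes were called lower and 1 was called higher. Of all genes tested, 12.6% were called lower and 10.3% higher, and of the 12978 genes at the same minimum 15.0% and 11.5%. The median difference of the 150 was -1.19 on the log2(CPM + 1) scale, against -0.04 over all genes tested. Because the central cell was chosen high, part of this excess of lower calls is fixed by the choice. With edgeR on recovered reads, 51 were called lower, a count given without its share over all genes. From 1 to 2 DAP, 124 were called lower and 0 higher, where 10.6% and 9.95% of all genes were. By an unadjusted p below 0.05, no gene of the 150 was higher with limma, edgeR or DESeq2. The median difference was -1.79 over the 150 and 0.00 over all genes tested, and part of it is again fixed, here by the low values asked of 2 DAP. Setting the calls of the 2 steps side by side, 55 genes were called lower at both, 23 only from 0 to 1 DAP, 68 only from 1 to 2 DAP and 3 at neither, and 1 was called higher and then lower. A step that was not called is not shown to be flat. These joint counts were not made over all genes, and the choice of genes bears on both steps. They are not read as a result about the genes. In 97 genes, or 64.7%, all 1 DAP libraries lay below all central cell libraries, and in 3, or 2.00%, they lay above. The same held for 18.5% and 15.6% of all genes tested and for 22.4% and 16.6% of the 12978, and the choice of a high central cell bears on these counts too.

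**Figure D2:**
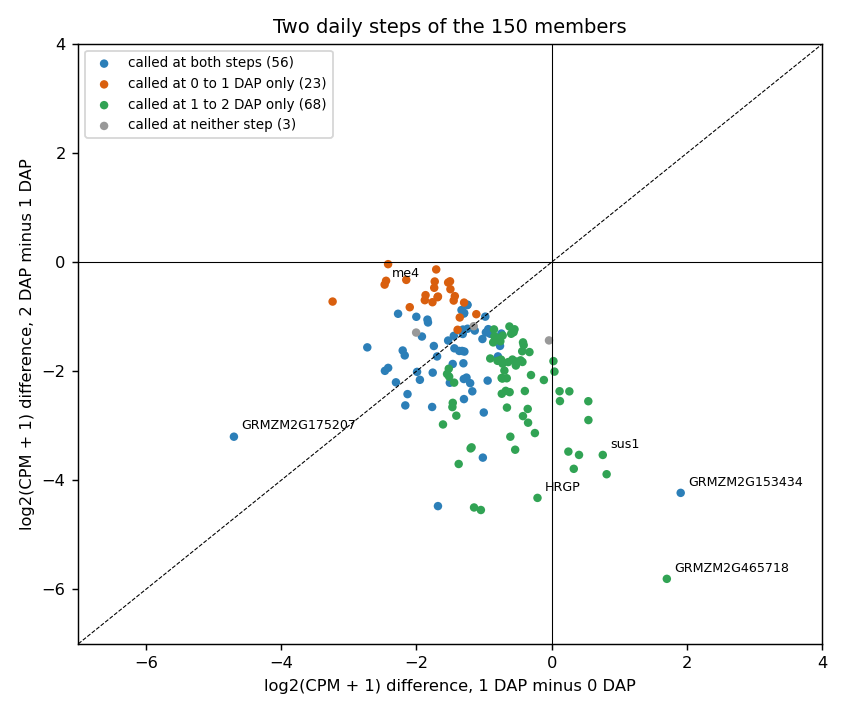
Difference in log2(CPM + 1) from 0 to 1 DAP (horizontal axis) and from 1 to 2 DAP (vertical axis) for each of the 150 genes, coloured by the steps at which it was called. Points below the dashed diagonal fell more from 1 to 2 DAP on this scale, as 104 of the 150 did, a count that changes with the pseudocount. On the same scale me4 and GRMZM2G175207 lie among those that fell more in the first step. Without the pseudocount, the 1 DAP mean of me4 was 0.0552 of the central cell mean and 17.5 times the 2 DAP mean. Which step of me4 was the larger thus depends on the scale.

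The sign of 1 DAP against the midpoint of 0 and 2 DAP is not fixed by the choice of genes. Against that midpoint, on the log2 scale, 21 genes were called higher at 1 DAP and 6 lower, where 5.86% and 4.83% of all genes tested were. The median was 0.31 for the 150 and -0.04 for all genes tested, with 104 of the 150 above 0 and 46 below. That split is the one given above by the share of the drop passed by 1 DAP, below or above 50%. It is not a second finding. The size of that median depended on the scale. It was 0.08 with a pseudocount of 5 CPM, where 85 were above 0 and 65 below. It was 0.50 with a pseudocount of 0.25 CPM, 0.65 with edgeR and 0.68 with DESeq2, where 122 were above and 28 below. The 6 lower calls, 4% of the 150, are near the share of all genes and are not read as a result about the genes. With edgeR 0 were called lower, with 3 at an unadjusted p below 0.05, and with DESeq2 1 was. The shares over all genes are not given for these 2 tests. The difference on the log2 scale understates change near 1 CPM, where the 2 DAP values of these genes lie.

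The 3 genes highest above the midpoint were GRMZM2G465718, GRMZM2G153434 and GRMZM2G010765. GRMZM2G465718, which also has the highest score, had 3.63, 124 and 28.1 CPM in the central cell, 137, 94.8 and 42.7 at 1 DAP and 0.707, 0.628 and 0.182 at 2 DAP. Its difference from the midpoint was 3.76 ± 0.67 log2 units (SE; limma adjusted p = 0.0013). The central cell libraries differed widely among themselves and overlapped those of 1 DAP, while every 2 DAP library was below 1 CPM. GRMZM2G153434 had 5.48, 8.37 and 18.5 CPM in the central cell, 53, 44 and 24.8 at 1 DAP, 0.984, 0.885 and 1.52 at 2 DAP, with 12.5, 22.6 and 25.3 in the embryo libraries. It is the 1 gene of the 150 called higher at 1 DAP than in the central cell, by 1.91 ± 0.37 log2 units (SE; limma adjusted p = 0.0012), with all 1 DAP libraries above all central cell libraries. GRMZM2G010765 had 30.5, 24.8 and 18 CPM in the central cell and 67.8, 32.3 and 35.4 at 1 DAP before 2.47, 2.74 and 0.976 at 2 DAP, with 2.35 ± 0.29 log2 units (SE; limma adjusted p = 3.9e-05) against the midpoint. The midpoint calls of all 3 were made in each alternative run. In these genes the level at 1 DAP was near or above that of the unfertilized cell, and the drop came between 1 and 2 DAP.

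At the other end, GRMZM2G175207 had the largest drop of the first day on the log2(CPM + 1) scale. Its libraries held 357, 757 and 845 CPM in the central cell, 19.2, 37 and 16 at 1 DAP and 1.06, 2.40 and 1.40 at 2 DAP, a difference from 0 to 1 DAP of -4.70 ± 0.60 log2 units (SE; limma adjusted p = 2.8e-05). Consecutive stages did not overlap. GRMZM2G099382 followed with 15.2, 13 and 16.3 CPM and then 2.23, 0.389 and 0.0363 CPM, -3.24 ± 0.30 log2 units (SE; limma adjusted p = 1e-06). Its 1 DAP libraries ranged widely at low level, and its place below the midpoint, -1.26 with limma, turned to 0.64 with edgeR and 1.00 with DESeq2. GRMZM2G061749 had 38.2, 29.1 and 16.1 CPM in the central cell and 2.68, 3.50 and 3.21 at 1 DAP, -2.73 ± 0.30 log2 units (SE; limma adjusted p = 5.6e-06), and was listed at 0 in 2 of 3 libraries at 3 DAP.

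Among the 150, 92 match an entry of the reference table and 19 carry a gene name, and these are described by what they encode. Their drops from 0 to 1 DAP and from 1 to 2 DAP are partly fixed by the choice of genes, whatever the adjusted p. Sucrose synthase splits sucrose into fructose and a sugar nucleotide for starch, cell walls and respiration, and maize sh1 and sus1 encode 2 of its forms. sus1 (GRMZM2G152908) had 86.6, 33.3 and 80.3 CPM in the central cell and 87.4, 87.1 and 149 at 1 DAP, groups that overlapped. It then had 7.43, 10.4 and 6.83 CPM at 2 DAP, 0.578, 0.895 and 1.18 at 3 DAP, 1.82, 0.420 and 0.372 at 4 DAP, with 150.3, 94 and 82 in the embryo libraries. The drop of sus1 thus came in 2 parts, -3.54 ± 0.37 log2 units (SE; limma adjusted p = 6.2e-06) from 1 to 2 DAP and -2.36 ± 0.37 log2 units (SE; limma adjusted p = 0.00025) from 2 to 4 DAP. At 1 DAP it stood above the midpoint by 2.15 ± 0.32 log2 units (SE; limma adjusted p = 0.00029), in every alternative run.

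sh1 (GRMZM2G089713) had 45.2, 31.2 and 57.2 CPM in the central cell, 31.5, 15.7 and 46.8 at 1 DAP, 8.48, 6.28 and 8.10 at 2 DAP, 0.396, 1.90 and 0.327 at 3 DAP, 2.27, 0.244 and 1.46 at 4 DAP, with 150.03, 85.5 and 123 in the embryo libraries. As with sus1, the endosperm level fell further after 2 DAP, with a difference of -1.99 ± 0.41 log2 units (SE; limma adjusted p = 0.0027) from 2 to 4 DAP. Unlike sus1, whose embryo and central cell libraries overlapped, all embryo libraries of sh1 were above all central cell libraries, 1.41 ± 0.41 log2 units (SE; limma adjusted p = 0.012), a call lost with edgeR, DESeq2 and a pseudocount of 0.25 CPM, without replicate 2 of the central cell and without all replicate 1 libraries. The difference between the 2 genes was not tested. iso3 (GRMZM2G150796), an isoamylase-type starch debranching enzyme, had 32.8 ± 4.90 CPM (SD, n = 3) in the central cell and 11.2 ± 4.33 at 1 DAP. Its later means were 3.65 ± 2.08 CPM at 2 DAP, 6.20 ± 1.85 at 3 DAP, 4.42 ± 1.18 at 4 DAP and 32.6 ± 8.23 in the embryo. It was lower at each of the first 2 steps, with a difference of -1.53 ± 0.36 log2 units (SE; limma adjusted p = 0.0049) and -1.44 ± 0.36 log2 units (SE; limma adjusted p = 0.0087), the latter lost without replicate 2 at 2 DAP, and its 2 and 4 DAP values were not called different. sus1, sh1 and iso3 are the 3 of 44 named sucrose, sugar and starch genes that are among the 150. Of the 43 tested, 14 were called lower and 2 higher from 0 to 1 DAP, where 12.6% and 10.3% of all genes tested were. From 1 to 2 DAP, 16 were lower and 1 higher, against 10.6% and 9.95% of all genes, and from 2 to 4 DAP 5 lower and 13 higher, against 8.56% and 9.50%. The median from 2 to 4 DAP was 0.48 over the 43 and -0.01 over all genes tested. sus1 and sh1 are 2 of the 5 lower ones. The score asked for a 4 DAP mean low relative to central cell and embryo, though not for a low level as such. The falls of sus1 and sh1 are therefore not set against the rises of the list.

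Of 48 named genes of water, ion and metal transport, 3 are among the 150. NIP1-1 (GRMZM2G041980), a nodulin 26-like channel of the aquaporin family, had 41.6, 111 and 117 CPM in the central cell, 11.2, 33.6 and 39.6 at 1 DAP, 0.0764, 0 and 0.443 at 2 DAP, 0.632, 3.52 and 1.41 at 4 DAP, with 18.5, 47.6 and 58 in the embryo libraries. All 1 DAP libraries were below all central cell libraries, and the step from 1 to 2 DAP was -4.48 ± 0.54 log2 units (SE; limma adjusted p = 2.5e-05). HAK8 (GRMZM2G173387), of the family of high-affinity potassium transporters, had 3.45, 12 and 35.3 CPM in the central cell and 18.4, 8.25 and 26 at 1 DAP before 0.248, 0.685 and 0.477 at 2 DAP. Its central cell libraries spread widely, its 1 DAP libraries lay within their range, and its place above the midpoint, 1.97 ± 0.51 log2 units (SE; limma adjusted p = 0.019), was lost without replicate 1 or replicate 3 at 1 DAP. It was also lost with a pseudocount of 5, at 1.10 log2 units, and without all replicate 1 libraries, at 1.43 log2 units. ysl11 (GRMZM5G812538), of the yellow stripe-like family of metal chelate transporters, had 18.5, 30.7 and 30.9 CPM in the central cell, 3.79, 5.16 and 4.92 at 1 DAP, 1.85, 1.91 and 1.93 at 2 DAP, 0.123, 0.433 and 0.534 at 4 DAP, with 4.09, 9.45 and 14.3 in the embryo libraries. For ysl11 the first day held the larger part of the drop, -2.27 ± 0.33 log2 units (SE; limma adjusted p = 9.9e-05), and the embryo was below the central cell with a difference of -1.53 ± 0.33 log2 units (SE; limma adjusted p = 0.0013). Over the 40 transport genes tested, 15 were called lower and 4 higher from 0 to 1 DAP (all genes, 12.6% and 10.3%), 17 lower and 1 higher from 1 to 2 DAP (all genes, 10.6% and 9.95%), and 18 lower and 5 higher in the embryo than in the central cell (all genes, 20.0% and 18.8%).

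The cell wall list of 47 named genes gave 2 members. Another gene model named HRGP, GRMZM2G099780, is in the list but not among the 150. It had means of 5.51 CPM in the central cell, 9.78 at 2 DAP, 12.8 at 4 DAP and 10.5 in the embryo. HRGP (GRMZM2G168651), a hydroxyproline-rich glycoprotein of the cell wall, had 65.2, 292 and 446 CPM in the central cell and 137, 238 and 169 at 1 DAP. It had 5.12, 15.2 and 6.03 CPM at 2 DAP, 0.578, 1.34 and 1.01 at 3 DAP, 0.0439, 0.284 and 0.819 at 4 DAP, with 112, 190.3 and 119 in the embryo libraries. Its 1 DAP libraries lay inside the range of the central cell, and the level fell with a difference of -4.32 ± 0.52 log2 units (SE; limma adjusted p = 2.7e-05) and then again with a difference of -2.72 ± 0.52 log2 units (SE; limma adjusted p = 0.0015) from 2 to 4 DAP, the largest called drop of the 150 over those days, lost with a pseudocount of 5 CPM. RHM1 (GRMZM2G031311), a rhamnose synthase that supplies pectin, had 8.04 ± 1.99 CPM (SD, n = 3) in the central cell, 4.80 ± 0.717 at 1 DAP, 1.57 ± 0.426 at 2 DAP and 17.1 ± 6.39 in the embryo, where it was called higher than in the central cell by 0.96 ± 0.26 log2 units (SE; limma adjusted p = 0.0067), a call lost when only these 2 groups were fitted. Of the 46 cell wall genes tested, 15 were called lower and 2 higher from 1 to 2 DAP, against 10.6% and 9.95% of all genes tested, and 3 lower and 12 higher from 2 to 4 DAP, against 8.56% and 9.50%.

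Of the 29 named lipid genes, plt1 and SEC14p are members. plt1 (GRMZM2G101958), a phospholipid transfer protein, had 73.1, 98.5 and 102 CPM in the central cell, 50.9, 78 and 59.3 at 1 DAP, 5.08, 6.05 and 3.49 at 2 DAP, 0.0439, 0.217 and 0.236 at 4 DAP, with 59.4, 43 and 11.7 in the embryo libraries. It fell in the second step with a difference of -3.44 ± 0.40 log2 units (SE; limma adjusted p = 1.8e-05) and from 2 to 4 DAP with a difference of -2.31 ± 0.40 log2 units (SE; limma adjusted p = 0.00061), the latter lost with a pseudocount of 5 CPM, and was lower in the embryo than in the central cell with a difference of -1.50 ± 0.40 log2 units (SE; limma adjusted p = 0.0065). SEC14p (GRMZM2G704053), of the family of phosphatidylinositol transfer proteins, had 8.82 ± 2.02 CPM (SD, n = 3) in the central cell, 1.77 ± 0.625 at 1 DAP, 0.270 ± 0.139 at 2 DAP and 7.71 ± 3.22 in the embryo. It was called lower at 1 DAP, with a difference of -1.83 ± 0.29 log2 units (SE; limma adjusted p = 0.00025). From 1 to 2 DAP, 6 of the 24 lipid genes tested were called lower and 3 higher, against 10.6% and 9.95% of all genes tested, and the 3 are near that share.

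NF-YA13 (GRMZM5G857944), a subunit of the CCAAT-binding nuclear factor Y, is the 1 gene of 256 named transcription factors among the 150. It had 6.95, 6.10 and 5.95 CPM in the central cell, 10.7, 3.07 and 9.47 at 1 DAP, 0.296, 0.257 and 1.23 at 2 DAP, 0.198, 0.0790 and 0 at 3 DAP, with 30.6, 43 and 53.1 in the embryo libraries. In the 3 libraries of 4 DAP endosperm it had 0 reads, which allows levels of up to 0.0263, 0.0406 and 0.0372 CPM (3 reads in each library). Its 1 DAP libraries overlapped those of the central cell, and it was higher in the embryo than in the central cell by 2.53 ± 0.34 log2 units (SE; limma adjusted p = 1.4e-05) in every alternative run. Of the 223 factors tested, 63 were called lower and 13 higher from 1 to 2 DAP, against 10.6% and 9.95% of all genes tested. In the embryo, 81 were called higher and 38 lower than in the central cell, against 18.8% and 20.0%, and the 38 are near that share.

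Dmc1 (GRMZM2G109618), the recombinase of meiotic strand exchange, is the 1 member from 42 named genes of cell cycle, replication and meiosis. It had 37, 33.2 and 37.4 CPM in the central cell, 4.68, 8.68 and 9.74 at 1 DAP, 0.258, 1.07 and 0.477 at 2 DAP, 0.0991, 0.158 and 0.0327 at 3 DAP, with 15.7, 10.6 and 4.76 in the embryo libraries. Consecutive stages did not overlap from 0 to 2 DAP, with -2.13 ± 0.33 log2 units (SE; limma adjusted p = 0.0002) and -2.42 ± 0.33 log2 units (SE; limma adjusted p = 9.3e-05) for the 2 steps, and the embryo was below the central cell with a difference of -1.83 ± 0.33 log2 units (SE; limma adjusted p = 0.00032). Of the 39 genes of its list that were tested, 17 were called higher and 4 lower from 0 to 1 DAP, against 10.3% and 12.6% of all genes tested, with a median of 0.61 on the log2 scale. The 4 lower calls are near the share of all genes.

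CBL5 (GRMZM2G041729), of the calcineurin B-like calcium sensors, had 27, 31.5 and 25.7 CPM in the central cell, 3.68, 4.67 and 4.41 at 1 DAP, 0.268, 0.642 and 0.0908 at 2 DAP, with 13.6, 47.5 and 27.5 in the embryo libraries. It was called lower at both steps, -2.47 ± 0.33 log2 units (SE; limma adjusted p = 5.2e-05) and -1.99 ± 0.33 log2 units (SE; limma adjusted p = 0.00054). Without the pseudocount, which compresses the 2 DAP values, the 1 DAP mean was 0.152 of the central cell mean and 12.8 times the 2 DAP mean, so which step was the larger depends on the scale. me4 (GRMZM2G118770), whose name and synonym me stand in the reference table without a product, had 6.03, 6.35 and 7.29 CPM in the central cell, 0.446, 0.404 and 0.236 at 1 DAP, 0.0191, 0.0428 and 0 at 2 DAP, with 11, 16.7 and 24.3 in the embryo libraries. It was below 1 CPM in all 12 endosperm libraries of 1 to 4 DAP, and its first step was -2.47 ± 0.23 log2 units (SE; limma adjusted p = 1.1e-06). Its place below the midpoint, -1.03 ± 0.20 log2 units (SE; limma adjusted p = 0.0028), was lost with edgeR and DESeq2, and the difference there is compressed by the pseudocount of 1 CPM. The embryo level of me4 was above the central cell in every library, 1.22 ± 0.23 log2 units (SE; limma adjusted p = 0.00048), a call that edgeR and DESeq2 did not make.

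The other named members were less sharply placed. rbohB (GRMZM2G138152), an NADPH oxidase that makes reactive oxygen at the plasma membrane and the 1 member from 43 named redox genes, had 14.6 ± 3.28 CPM (SD, n = 3) in the central cell, 8.34 ± 3.01 at 1 DAP, 2.20 ± 0.887 at 2 DAP, 3.37 ± 0.341 at 4 DAP and 24.6 ± 4.66 in the embryo. mir2 (GRMZM2G150256), a cysteine protease and the 1 member from 24 named proteases and inhibitors, had 9.07 ± 4.90 CPM in the central cell, 5.00 ± 2.35 at 1 DAP, 0.478 ± 0.452 at 2 DAP and 8.17 ± 4.07 in the embryo. Both fell from 1 to 2 DAP, rbohB with a difference of -1.54 ± 0.26 log2 units (SE; limma adjusted p = 0.00057) and mir2 with a difference of -1.99 ± 0.40 log2 units (SE; limma adjusted p = 0.002). Ann3 (GRMZM2G134502), named as an annexin, a family of calcium-dependent membrane-binding proteins, matches 2 reference entries and is uncertain for that reason. Its means were 12.6 ± 1.13 CPM in the central cell, 9.13 ± 1.73 at 1 DAP, 1.85 ± 0.489 at 2 DAP and 11.5 ± 3.07 in the embryo. apt1 (GRMZM2G448687) had 58.8 ± 15.3 CPM in the central cell, 24 ± 15.1 at 1 DAP, 8.51 ± 1.31 at 2 DAP, 11.1 ± 5.22 at 4 DAP and 87.8 ± 17.8 in the embryo. sfp1 (GRMZM2G159632), near the end of the ranking, had 24.2 ± 5.25 CPM in the central cell, 8.05 ± 2.82 at 1 DAP, 6.34 ± 3.23 at 2 DAP and 63.3 ± 27.5 in the embryo. Both were called lower in the first step only, apt1 with a difference of -1.39 ± 0.44 log2 units (SE; limma adjusted p = 0.03) and sfp1 with a difference of -1.50 ± 0.38 log2 units (SE; limma adjusted p = 0.0088). The call of apt1 was lost with edgeR, with DESeq2 and without any of 4 single libraries.

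**Figure D3:**
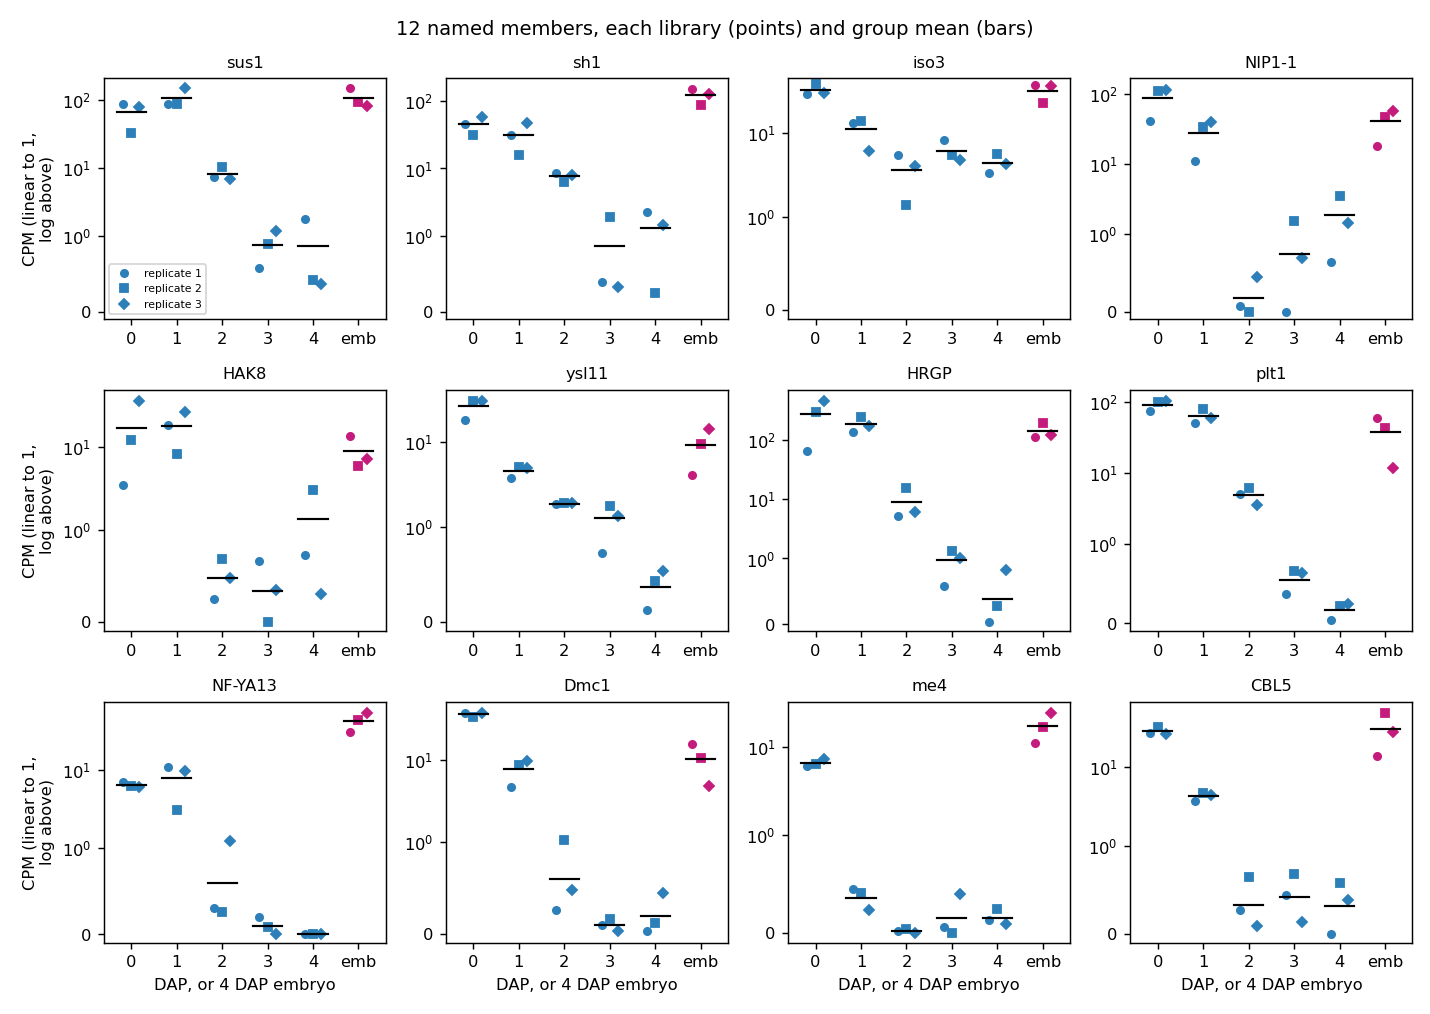
CPM of 12 named genes in each library (points, shaped by replicate) and the mean of each group (bars), on an axis that is linear to 1 CPM and logarithmic above, for 0 to 4 DAP and the 4 DAP embryo (emb). At 1 DAP sus1, HRGP, HAK8 and NF-YA13 overlap their central cell libraries, CBL5, Dmc1 and me4 are already lower there, and NF-YA13 lies at 0 in all 3 libraries of 4 DAP endosperm.

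The embryo and the central cell, both chosen high, were compared next, since the sign of their difference is not fixed. The embryo mean was more than 2 times the central cell mean in 35 genes, less than 0.5 times in 26, and within these bounds in 89. By the test, 37 of the 150 were called higher in the embryo and 22 lower, where 18.8% and 20.0% of all genes tested were, and 19.8% and 20.0% of the 12978 genes at the same minimum. The shares of the 150, 24.7% and 14.7%, lie near these and are not read as a result about the genes. Without replicate 1 of the embryo, 42 were called higher and 14 lower. All embryo libraries were above all central cell libraries in 41 genes, or 27.3%, and below them in 23, or 15.3%. Of all genes tested 22.3% and 22.6% were so placed, and of the 12978 24.2% and 23.4%. These shares too are not read as a result about the genes.

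In 17 genes the embryo mean was more than 5 times the central cell mean. Their central cell means ran from 4.52 to 65.7 CPM and their embryo means from 27.9 to 1754 CPM, and none of their 2 to 4 DAP means exceeded 2.09 CPM. GRMZM2G313020 had 10.9, 6.95 and 7.68 CPM in the central cell and 506, 497 and 469 in the embryo, the largest difference of the 150 at 5.71 ± 0.36 log2 units (SE; limma adjusted p = 2.8e-09). GRMZM2G405804 was close to it, with 15, 13.1 and 9.24 CPM in the central cell and 502, 568 and 572 in the embryo, 5.37 ± 0.36 log2 units (SE; limma adjusted p = 5.6e-09). In both, the 3 embryo libraries were alike, replicate 1 included. A set of 5 others differed in this: GRMZM2G075386 had 65.8, 65 and 66.3 CPM in the central cell, 17, 18.9 and 8.18 at 1 DAP, 2.22, 1.46 and 0.760 at 2 DAP, with 703, 2246 and 2312 in the embryo libraries, with replicate 1 of the embryo far below the other 2. GRMZM2G376674 had 33.9, 41.2 and 42.9 CPM in the central cell and 629.7, 1858 and 1899 in the embryo. GRMZM2G466848 had 18.2, 21.3 and 18.7 CPM in the central cell and 134, 427 and 372 in the embryo. GRMZM2G466856 and AC185611.3_FG001 followed the same pattern, with means of 38.3 ± 7.11 and 30.0 ± 4.14 CPM (SD, n = 3) in the central cell and 1026 ± 533 and 512 ± 295 CPM in the embryo. All 5 fell at both of the first steps, and in each the 1 DAP value was lowest in replicate 3. These genes carry no name in the reference table, or no entry there.

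GRMZM2G075386, GRMZM2G376674 and GRMZM2G466848 are also neighbours. In the gene order of the reference assembly, no coding gene lies between GRMZM2G075386 and GRMZM2G376674, and 1 lies between GRMZM2G376674 and GRMZM2G466848. Of the 90 members placed in that order, 7 pairs had at most 9 coding genes between them, and the 5 other pairs were GRMZM2G061554 with GRMZM2G054805, GRMZM2G025720 with GRMZM2G035685, GRMZM2G138907 with GRMZM2G113373, GRMZM2G010435 with GRMZM2G010555, and GRMZM2G058655 with GRMZM2G087150. The members of a pair did not always share a profile: GRMZM2G010435 had 10.5, 15.1 and 27.6 CPM in the central cell and 7.92, 16.4 and 19.2 at 1 DAP, and GRMZM2G010555 had 20.9, 11.3 and 5.82 CPM and then 1.12, 2.32 and 2.32. Counting of reads shared by close copies is not given in the sources used here, so neighbouring genes of like sequence may share reads.

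The embryo list, given here beside the 17 embryo-high genes, summed to 3.59 to 8.75 CPM in the central cell libraries. Nearly all of it came from the 2 models of wox13A, which may count the same reads, while the other 4 markers had means there of at most 0.0791 CPM. A central cell level of at least 3 CPM in each library was asked of every gene of the 150, so that their level lies above those 4 markers is fixed by the choice. The part of embryo RNA in the central cell values was not tested.

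At the other end of the comparison, 26 genes had a central cell mean more than 2 times that of the embryo. GRMZM2G180659 had 179, 274 and 362 CPM in the central cell, 90.6, 142 and 154 at 1 DAP, 4.94, 3.63 and 4.79 at 2 DAP, with 7.20, 29.7 and 27.9 in the embryo libraries, a difference between embryo and central cell of -3.76 ± 0.44 log2 units (SE; limma adjusted p = 3.5e-06). AC209356.4_FG001 had 331, 1145 and 2089.7 CPM in the central cell, 147, 674 and 729 at 1 DAP, with 24.3, 134 and 136 in the embryo libraries, -3.58 ± 0.91 log2 units (SE; limma adjusted p = 0.0049). GRMZM2G175207, with its large drop by 1 DAP, had 21, 68.3 and 66 CPM in the embryo, -3.71 ± 0.60 log2 units (SE; limma adjusted p = 0.0001). For all 3, the embryo level was a small part of that of the central cell, and replicate 1 of the embryo was the lowest of the embryo libraries.

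**Figure D4:**
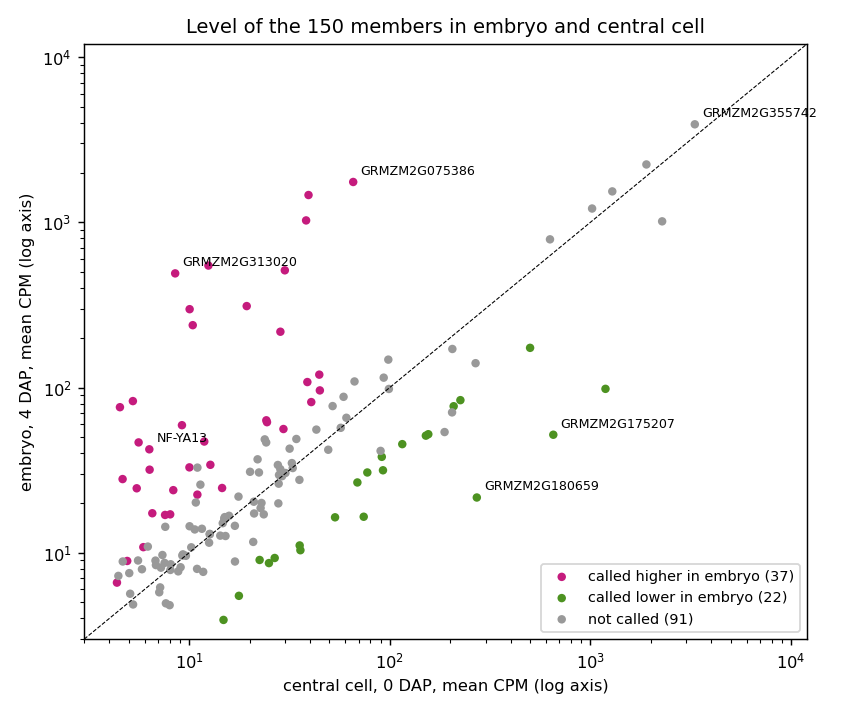
Mean CPM of each of the 150 genes in the central cell (horizontal, log axis) and in the 4 DAP embryo (vertical, log axis), coloured by the call of the embryo against the central cell. The dashed line marks equal means: 37 genes are called above it, GRMZM2G075386 and GRMZM2G313020 far above, and 22 below it, GRMZM2G175207 and GRMZM2G180659 far below.

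Within the endosperm, both 2 and 4 DAP were chosen low, and the sign of their difference is not fixed. From 2 to 4 DAP, 9 genes were called higher and 10 lower, against 9.50% and 8.56% of all genes tested. With the replicate number as a block the counts were 15 and 20, with edgeR 13 and 32, and with DESeq2 20 and 37. The shares of all genes above are those of the main limma fit. None is given for these alternatives, so their counts are not read as a result about the genes. The lower genes with the largest differences were HRGP, GRMZM2G105631, GRMZM5G898684, sus1, plt1 and sh1. GRMZM2G105631 had 208, 159.7 and 307 CPM in the central cell, 279, 203 and 300.2 at 1 DAP, 28.5, 15.6 and 24.7 at 2 DAP, 4.14, 1.75 and 2.74 at 4 DAP, with 83.3, 72.9 and 95.3 in the embryo libraries. Its 1 DAP libraries overlapped those of the central cell, and it fell in steps of -3.48 ± 0.31 log2 units (SE; limma adjusted p = 1.1e-06) to 2 DAP and -2.63 ± 0.31 log2 units (SE; limma adjusted p = 1.2e-05) to 4 DAP, in every alternative run. GRMZM5G898684 had 104, 95 and 96.3 CPM in the central cell, 17.2, 33.5 and 20.0 at 2 DAP and 4.28, 1.12 and 6.51 at 4 DAP, a slower fall, with -2.43 ± 0.38 log2 units (SE; limma adjusted p = 0.00028) after 2 DAP.

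The 3 with the largest rise from 2 to 4 DAP belong to a set of 5 genes linked by their ratios over the 18 libraries: in 9 of their 10 pairs the log2 ratio had an SD below 0.3. The ratio of GRMZM2G355742 to GRMZM2G355761 ran from 1.58 to 1.93 and that of GRMZM2G355742 to GRMZM2G323925 from 1.62 to 3.50. The pair of GRMZM2G496821 and GRMZM2G355742, with an SD of 0.32 and a ratio of 0.158 to 0.332, was past the limit. GRMZM2G355742 had 1029.7, 2380.5 and 6529 CPM in the central cell, 549, 2619.9 and 944 at 1 DAP, 85.2, 213 and 62.1 at 2 DAP, 71.9, 91.6 and 104 at 3 DAP, 171, 1257 and 838 at 4 DAP, with 1909, 5133 and 4709.9 in the embryo libraries. Replicates 2 and 3 at 4 DAP were near or above the lowest central cell library, and replicate 1 was far below them. GRMZM2G355761 had 52.6, 110.5 and 37 CPM at 2 DAP and 105, 712 and 485 at 4 DAP, and GRMZM2G323925 had 49.2, 107 and 38.3 CPM and 75.8, 559 and 349.7 CPM. The differences from 2 to 4 DAP were 2.43 ± 0.75 log2 units (SE; limma adjusted p = 0.031) for GRMZM2G355742, 2.45 ± 0.71 log2 units (SE; limma adjusted p = 0.022) for GRMZM2G355761 and 2.05 ± 0.67 log2 units (SE; limma adjusted p = 0.042) for GRMZM2G323925. All 3 calls were lost without replicate 2 or replicate 3 at 4 DAP, or without replicate 1 or replicate 3 at 2 DAP. That of GRMZM2G323925 was also lost with a pseudocount of 5, at 1.98 log2 units, and when only the groups compared were fitted, at 2.05 log2 units. The other genes of the set are GRMZM2G496821 and AC203847.3_FG004. Summed, the 5 made up 0.260%, 0.633% and 1.44% of all CPM in the central cell libraries, 0.0516%, 0.353% and 0.223% at 4 DAP endosperm, and 0.578%, 1.36% and 1.26% in the embryo. In the libraries of 4 DAP endosperm the embryo list summed to 2.76 to 4.31 CPM and the embryo-surrounding list to 42.5 to 255 CPM. The part of either in the rise was not tested.

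**Figure D5:**
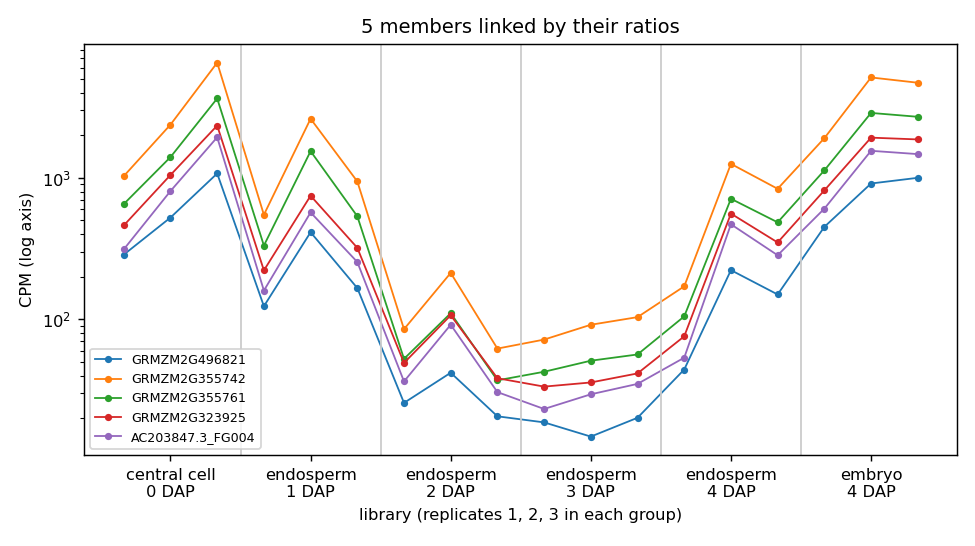
CPM (log axis) of the 5 genes linked by their ratios in each of the 18 libraries, in groups of 3 replicates. The 5 lines move together, though GRMZM2G355761 and GRMZM2G323925 meet at 2 DAP. They drop from the central cell to 2 and 3 DAP and rise again at 4 DAP, most in replicates 2 and 3. There GRMZM2G355742 reaches 1257 and 838 CPM, against 171 CPM in replicate 1.

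Of the 87 members with at least 10 reads in every library, 16 pairs had a log2 ratio with an SD below 0.3 over the 18 libraries, a limit chosen after the values were seen. Genes linked by such pairs form 3 sets of 5, 4 and 2 genes. In the second, GRMZM2G122392 had 83.3, 162 and 222 CPM in the central cell and 22.2, 65.5 and 68.7 in the embryo, and GRMZM2G091683 had 81.1, 159.5 and 213 CPM and 19.5, 65.4 and 68.4 CPM. The 2 differed little in each of these libraries, and whether they are counted from separate reads was not tested. GRMZM2G097504 and GRMZM2G136734 make up the rest of that set, and GRMZM2G130558 and GRMZM2G431279 the last. With 1 gene kept per set, 142 members remained, of which 77 were called lower and 1 higher from 0 to 1 DAP, 116 lower from 1 to 2 DAP, and 37 higher and 19 lower in the embryo than in the central cell. From 2 to 4 DAP, 6 of the 142 were called higher and 10 lower, where 9 and 10 of the 150 were.

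The last 5 genes inside the 150 were GRMZM5G875564, sfp1, GRMZM2G064877, GRMZM2G021864 and GRMZM2G128832. GRMZM2G128832, in place 150, had means of 2277 ± 1444 CPM (SD, n = 3) in the central cell, 237 ± 145 at 2 DAP, 225 ± 118 at 3 DAP, 301 ± 216 at 4 DAP and 1013 ± 635 in the embryo. The first 5 outside were GRMZM2G038281, GRMZM2G162614, GRMZM2G078725, GRMZM2G317900 and GRMZM5G863596. GRMZM2G038281 had means of 73.5 ± 7.89 CPM in the central cell, 9.32 ± 0.732 at 2 DAP, 10.5 ± 2.02 at 4 DAP and 37.6 ± 11.2 in the embryo. GRMZM2G128832 thus entered by its ratio and not by a low level in the endosperm.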

How the data were processed

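RNA-seq of laser-captured maize central cell, endosperm and embryo was analysed in 18 libraries. Per the labels' protocols, amplified cDNA (Nugen Ovation) went into paired-end libraries. The submitters' processing notes list the build B73 RefGen_v3 and, without their roles, edgeR, bedtools 2.17.0, TopHat2 2.0.9 and Trimmomatic; strandedness is not given in the sources used here. The deposited table holds a normalised signal, CPM per gene and library, for 38300 genes, and each value was a whole multiple of 1 read's worth within 0.001 reads, so reads were recovered (100.0% of values). Amplified reads are not independent molecules, and floors of 3 reads cover counting error only.

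Tests used limma 3.58.1 in R 4.3.3 on log2(CPM + 1), with 1 mean per group over all 18 libraries, for the 31783 genes at 1 CPM or more in at least 3 libraries, two-sided, with Benjamini-Hochberg adjustment over all of them. The pseudocount of 1 CPM understates changes of low genes. Alternatives were edgeR 4.0.16 and DESeq2 1.42.0 on recovered reads, other pseudocounts, no filter, only the groups compared, a replicate block and leaving out libraries. The code was tested on simulated data. Deviations of same-numbered libraries correlated positively (lowest 0.232 for 0 and 1 DAP, 0.194 for 1 and 2 DAP, 0.334 for 2 and 4 DAP, 0.149 for central cell and embryo). For 0 and 2 DAP the correlations ran from 0.0562 for replicate 2 to 0.500 for replicate 1. Replicates 2 and 3 were not always set apart by number. Replicate 3 of the central cell gave 0.258 with replicate 2 of the embryo and 0.225 with replicate 3. The labels do not say what a number shares.

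Names came from a table of the NAM-5.0 assembly, matched by identifier for 14443 genes (37.7%), of which 2022 have a name; lists were matched by name alone. The members and lists were chosen with earlier results of these data known. Members named are those with a gene name, the top 10 scores, those on either side of the limit, the 3 largest called rises and falls of a comparison, those of highest CPM, and neighbours; of these 57 not all are described. CPM is not corrected for gene length. A list of nucellus genes was not used here, and no sequence was used. Genome position served only to set the gene order for neighbours.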

Additional observations from a re-analysis of the deposited data

How the results depend on the processing

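Every count from 1 to 2 DAP stayed within 1.5 times its value in each alternative, and so did the higher calls of the embryo against the central cell. For the other counts of the 150 genes, the cause of a shift was not tested. Shares over all genes tested are given for the main limma fit only. Whether an alternative calls more or fewer genes throughout is thus not shown beside its counts. From 0 to 1 DAP, the 1 higher call became 2 with a pseudocount of 5 CPM and without all replicate 1 libraries (an alternative chosen after seeing the data), and the 78 lower calls became 51 with edgeR. Against the midpoint of 0 and 2 DAP, the 6 lower calls became 3 with a pseudocount of 0.25 CPM, 1 with DESeq2 and 0 with edgeR. From 2 to 4 DAP, the 9 higher calls became 20 with DESeq2, 5 with a pseudocount of 5 CPM and 14 without all replicate 1 libraries. The 10 lower calls became 37 with DESeq2, 32 with edgeR, 18 with a pseudocount of 0.25 CPM and 5 with a pseudocount of 5 CPM.

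With the replicate number as a block, the counts were 2 higher and 98 lower from 0 to 1 DAP, 136 lower from 1 to 2 DAP, 15 higher and 20 lower from 2 to 4 DAP, and 43 higher and 29 lower in the embryo. Against the midpoint, where the replicate 2 libraries of 0 and 2 DAP correlated at only 0.0562, the block gave 34 higher and 9 lower.

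Leaving out single libraries gave 1 to 2 higher and 60 to 77 lower calls from 0 to 1 DAP, 106 to 118 lower from 1 to 2 DAP, 17 to 22 higher and 3 to 7 lower against the midpoint, 3 to 11 higher and 7 to 8 lower from 2 to 4 DAP, and 30 to 42 higher and 14 to 25 lower in the embryo. The rises from 2 to 4 DAP came to 3 calls without replicate 1 at 2 DAP and to 3 without replicate 2 at 4 DAP, to 4 without replicate 3 at 2 DAP and to 5 without replicate 3 at 4 DAP; the lower midpoint calls came to 3 without replicate 1 at 1 DAP. The membership itself shared 135 genes with an offset of 0.25 CPM in the score, 114 with 5 CPM, 137 with CPM rescaled to a total of 1000000 per library, and 126 to 148 without single libraries. Of 128 calls on named genes, 80 held in all alternatives and 48 were lost in at least 1. GRMZM2G099382 against the midpoint changed sign, from -1.26 with limma to 1.00 with DESeq2 and 0.64 with edgeR.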
